A study of Mus musculus with 8 samples.

Results

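Chromatin loops bound by HA-tagged REV-ERBα were compared between 2 liver libraries made with a shortened protein, labelled ΔhIDR, and 2 made with the full-length protein, labelled WT. A loop here is a pair of anchor intervals on the same chromosome with the number of paired-end tags (PETs) that joined them. Loops were taken when both anchors were at least 700 bp wide and their midpoints lay less than 2 Mb apart, with mitochondrial loops and chromosome 11 from 3.1 to 3.3 Mb left out. They are called wide-anchor loops below. There were 4693 of them, 743 and 262 in ΔhIDR replicates 1 and 2 and 1769 and 1919 in WT replicates 1 and 2, out of 277524 loops of any width listed in 6 anti-HA libraries of the series.

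Each ΔhIDR library came from the liver of floxed mice (REV-ERBaf/fREV-ERBbf/f) given AAV8-TBG-Cre together with AAV8-TBG-3HA-REV-ERBa-delhIDR, collected at zeitgeber time (ZT) 10 and pulled down with anti-HA beads. Each WT library differed only in the second virus, AAV8-TBG-3HA-REV-ERBa-WT. Both groups therefore carry the same floxed alleles of REV-ERBα and REV-ERBβ and the same Cre, and differ in the construct. The TBG promoter is active in hepatocytes, so that Cre and the tagged protein are directed to these cells and not to the other cells of the liver. The labels give neither the ages of the mice, nor whether the replicates were different mice, nor how much of each construct was made, so that a p here speaks of the spread among these 4 libraries, which may be technical. One anti-HA library each from REV-ERBa3HA/3HA knock-in mice at ZT10 and at ZT22, which received no virus, served as lists to match loops against. The ZT22 and ZT10 anti-CTCF samples were not used here.

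REV-ERBα, encoded by Nr1d1, is a heme-binding nuclear receptor that represses transcription by recruiting the NCoR and HDAC3 corepressor complex. It closes a feedback loop of the circadian clock by repressing clock genes such as Bmal1 and Npas2, and in liver it also restrains genes of lipid metabolism. The series title places the shortened segment in a study of protein condensation and rhythmic transcription. In ChIA-PET, crosslinked chromatin is cut, religated in the nucleus and immunoprecipitated, so that PETs with ends far apart record distant places held together at sites of the bound protein.

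Promoters were placed first among the wide anchors. Of 32851 RefSeq promoter windows (GRCm38.p6, 300 bases from before to just after the annotated start), 256 lay under a wide anchor in at least 1 of the 4 libraries. These were 82 and 22 windows in ΔhIDR replicates 1 and 2 and 74 and 82 in WT replicates 1 and 2. Only 3 windows lay under an anchor in both libraries of a construct, and they are printed here with that of Npas2, the gene at which loops recurred most often. The window of Gm15722, a predicted gene whose start lies inside Gramd4, had 7 and 3 PETs in the ΔhIDR libraries and was under no wide anchor in the WT libraries (chr15:86091267-86091566, minus strand). The window of Adra1b, an adrenergic receptor of hepatocytes, was under no wide anchor in the ΔhIDR libraries and had 4 and 3 PETs in the WT libraries (chr11:43901188-43901487, minus strand). That of Ttc39b was likewise under none in the ΔhIDR libraries and had 3 and 3 PETs in the WT libraries (chr4:83324140-83324439, minus strand). The Npas2 window (chr1:39194022-39194321, plus strand) lay under no wide anchor and began 154 bases beyond the anchor that recurred in the WT libraries. Capitals mark AGCT, the site cut by AluI, the enzyme of the protocol.
Gm15722: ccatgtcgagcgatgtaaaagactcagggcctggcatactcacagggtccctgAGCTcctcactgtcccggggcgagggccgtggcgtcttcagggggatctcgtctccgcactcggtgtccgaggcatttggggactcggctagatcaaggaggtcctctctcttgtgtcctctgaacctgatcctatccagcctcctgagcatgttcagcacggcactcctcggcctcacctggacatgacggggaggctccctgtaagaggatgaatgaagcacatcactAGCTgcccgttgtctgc
Adra1b: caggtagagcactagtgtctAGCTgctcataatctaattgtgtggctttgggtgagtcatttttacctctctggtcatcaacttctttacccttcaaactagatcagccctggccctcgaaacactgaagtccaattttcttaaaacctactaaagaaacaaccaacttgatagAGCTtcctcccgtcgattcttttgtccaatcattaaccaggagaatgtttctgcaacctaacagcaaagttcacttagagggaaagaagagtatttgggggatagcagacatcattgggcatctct
Ttc39b: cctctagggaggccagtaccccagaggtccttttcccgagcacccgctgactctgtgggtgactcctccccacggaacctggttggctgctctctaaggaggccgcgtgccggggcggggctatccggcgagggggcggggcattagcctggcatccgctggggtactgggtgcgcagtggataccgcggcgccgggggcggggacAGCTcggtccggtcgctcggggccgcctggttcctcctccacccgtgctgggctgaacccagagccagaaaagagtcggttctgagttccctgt
Npas2: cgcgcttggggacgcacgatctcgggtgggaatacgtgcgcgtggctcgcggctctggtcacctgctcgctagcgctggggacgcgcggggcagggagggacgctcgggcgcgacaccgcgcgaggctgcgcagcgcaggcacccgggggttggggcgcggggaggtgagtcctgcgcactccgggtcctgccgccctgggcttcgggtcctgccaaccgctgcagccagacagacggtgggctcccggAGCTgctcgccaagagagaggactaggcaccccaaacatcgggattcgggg

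The letters AGGTCA, the half-site bound by nuclear receptors of this kind, were searched on both strands and were in none of the 4 windows. AGGTCA was in 16.4% of the 256 windows under a wide anchor and in 16.3% of all 32851 windows. AGCT reads the same on both strands and can share an end base with AGGTCA. It was in 88.3% of the windows under an anchor and in 77.6% of all windows.

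Wide-anchor loops made up a smaller share of the listed loops in the ΔhIDR libraries than in the WT libraries. ΔhIDR replicates 1 and 2 listed 47909 and 41955 loops of any width with 178263 and 160529 PETs, and WT replicates 1 and 2 listed 30973 and 57989 loops with 103224 and 203124 PETs. Wide-anchor loops were 1.55% of these in ΔhIDR replicate 1 (95% Wilson interval 1.44 to 1.67) and 0.624% in ΔhIDR replicate 2 (0.553 to 0.705). They were 5.71% in WT replicate 1 (5.46 to 5.98) and 3.31% in WT replicate 2 (3.17 to 3.46). These intervals cover counting error only, since PCR copies without molecular identifiers are not independent molecules. Both ΔhIDR libraries lay below both WT libraries, with means of 1.09% ± 0.655 and 4.51% ± 1.70 (SD, n = 2 each), a ratio of 0.241. An exact two-sided permutation test gave p = 0.33, the smallest that 2 against 2 libraries allow. In PETs the means were 0.988% ± 0.615 in ΔhIDR and 4.28% ± 1.66 in WT libraries (SD, n = 2 each; exact permutation p = 0.33).

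The size of that difference rested on the anchor width. At 600 bp or wider the mean share was 11.9% in ΔhIDR and 14.1% in WT libraries, and at 1000 bp or wider it was 0.272% and 1.41%. Just outside the limit, loops whose narrower anchor measured 600 to 699 bp numbered 5471 and 4296 in ΔhIDR and 2748 and 5926 in WT libraries. Just inside it, at 700 to 799 bp, they numbered 238 and 76 in ΔhIDR and 458 and 564 in WT libraries. The ZT10 knock-in library kept 71.4% of its loops at 700 bp, far more than any of the 4 AAV libraries, and the ZT22 knock-in library kept 11.6%. Mitochondrial PETs, which are left out of the comparison, moved the same way, with 369 and 151 in ΔhIDR and 1207 and 1012 in WT libraries, and their part in the result was not tested. Fewer cells with the tagged protein and fewer bound sites per cell cannot be told apart in these bulk libraries.

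**Figure D1:**
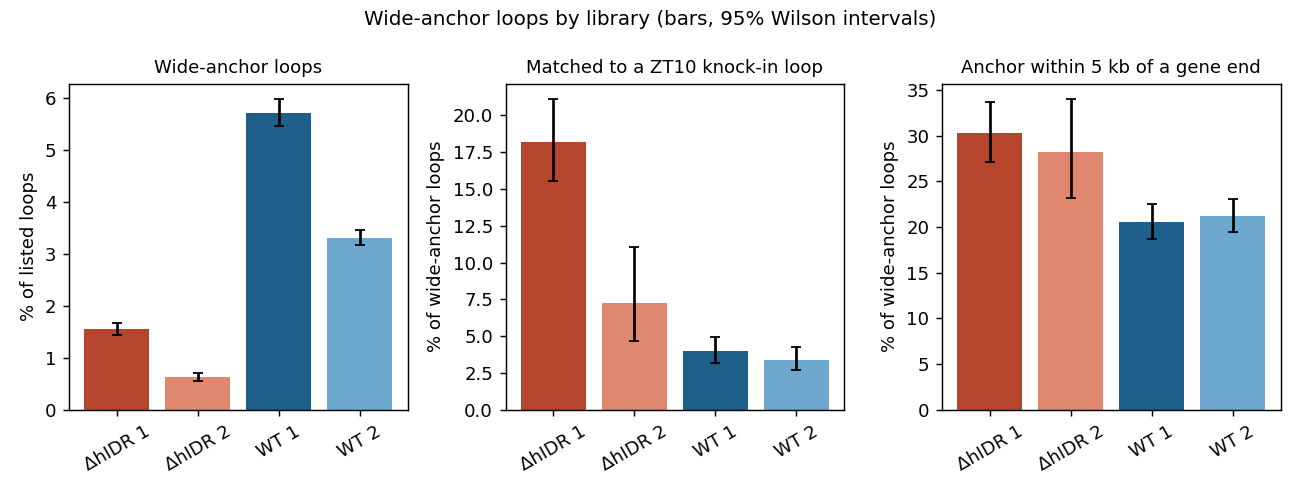
Bars give, for each library, the share of listed loops that had wide anchors (left, %), and the shares of wide-anchor loops that matched a ZT10 knock-in loop (middle, %) or had an anchor within 5 kb of a gene end (right, %), with 95% Wilson intervals. The ΔhIDR libraries sit at 1.55% and 0.624% on the left and the WT libraries at 5.71% and 3.31%, while in the other panels both ΔhIDR bars are above both WT bars.

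Most wide-anchor loops were weak in every library. Loops of exactly 3 PETs, the lowest count listed, were 74.4% and 76.3% of the wide-anchor loops in ΔhIDR libraries and 85.6% and 80.4% in WT libraries. The mean was 3.41 and 3.39 PETs a loop in ΔhIDR and 3.18 and 3.29 in WT libraries. The highest loop of each library held 11 and 9 PETs in ΔhIDR and 10 and 10 in WT libraries, against 374 in the ZT10 knock-in library. Loops of up to 2 PETs are not listed, and loops with a narrower anchor were not counted unless another width is named. Where the PETs of a gene, bin or loop are given below as 0, none or no listed PET, no listed wide-anchor loop held any. Narrower or unlisted loops may still lie there, so such a value does not show that there were none.

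The ΔhIDR loops were longer. Their median span was 17.6 and 19.1 kb in ΔhIDR replicates 1 and 2, against 12.9 and 14.7 kb in WT replicates 1 and 2. Loops under 10 kb were 16.6% and 15.6% of the wide-anchor loops in ΔhIDR and 26.1% and 22.7% in WT libraries. Loops of 20 to 50 kb were 23.1% and 24.8% in ΔhIDR and 15.5% and 20.8% in WT libraries. For each of these 3 measures the groups did not overlap and the exact permutation p was 0.33, with n = 2 each. Under the wider limit of 100 kb the groups were close, at 88.4% ± 0.277 in ΔhIDR and 90.1% ± 1.46 in WT libraries (SD, n = 2 each; exact permutation p = 0.33). With loops of at least 4 PETs alone this last difference turned, to 93.1% in ΔhIDR and 89.9% in WT libraries. The ZT10 knock-in loops had a median span of 31.1 kb and the ZT22 knock-in loops one of 13.0 kb, so that the ΔhIDR values lay between them and the WT values near the ZT22 library.

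Loops were then matched to the ZT10 knock-in library, which records where the animal's own tagged receptor is found at this hour. A match required both anchors to overlap those of a listed knock-in loop by at least 1 bp. Matched loops were 135 of 743 (18.2%, 95% Wilson interval 15.6 to 21.1) in ΔhIDR replicate 1 and 19 of 262 (7.25%, 4.69 to 11.05) in ΔhIDR replicate 2. They were 70 of 1769 (3.96%, 3.14 to 4.97) in WT replicate 1 and 65 of 1919 (3.39%, 2.67 to 4.29) in WT replicate 2. The mean matched share was 12.7% ± 7.72 in ΔhIDR and 3.67% ± 0.403 in WT libraries (SD, n = 2 each; exact permutation p = 0.33). The intervals of ΔhIDR replicate 2 and WT replicate 1 overlapped. With anchors of 600 bp or wider the means came to 2.06% in ΔhIDR and 1.62% in WT libraries. By library these were 3.04% and 1.08% in ΔhIDR and 1.88% and 1.35% in WT libraries. At that width the groups overlapped, with ΔhIDR replicate 2 the lowest.

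Counted per 10000 listed loops, the matched loops did not separate the constructs. They came to 28.2 and 4.53 in ΔhIDR libraries and to 22.6 and 11.2 in WT libraries, so that the groups overlapped (exact permutation p = 1, n = 2 each). Unmatched loops came to 127 and 57.9 per 10000 in ΔhIDR and to 549 and 320 in WT libraries, with both ΔhIDR values below both WT values (exact permutation p = 0.33, n = 2 each). The difference in the number of wide-anchor loops therefore lay in loops that the ZT10 knock-in library does not list. Loops under 2 Mb with a narrower anchor matched at 0.686% and 0.492% in ΔhIDR and at 0.387% and 0.328% in WT libraries. Of the ZT22 knock-in wide-anchor loops, 7.12% matched a ZT10 loop. Matches to the ZT22 library itself were few, 3 and 0 loops in ΔhIDR and 10 and 13 in WT libraries.

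Most knock-in loops met by matched loops were above 4 PETs, the median of the wide-anchor loops of the ZT10 knock-in library. Where a loop met several, the strongest was taken, which raises the values given here. The knock-in loops they met had a median of 15 and 26 PETs for ΔhIDR replicates 1 and 2 and of 21 and 12 PETs for WT replicates 1 and 2. Single anchors were also counted, over all wide-anchor loops, matched ones included. Neither anchor touched a wide anchor of the ZT10 knock-in library in 59.0% and 76.0% of the ΔhIDR loops. For the WT loops this share was 85.6% and 86.0%. Both anchors touched such a knock-in anchor in 25.7% and 10.7% of the ΔhIDR loops and in 5.65% and 4.74% of the WT loops.

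**Figure D2:**
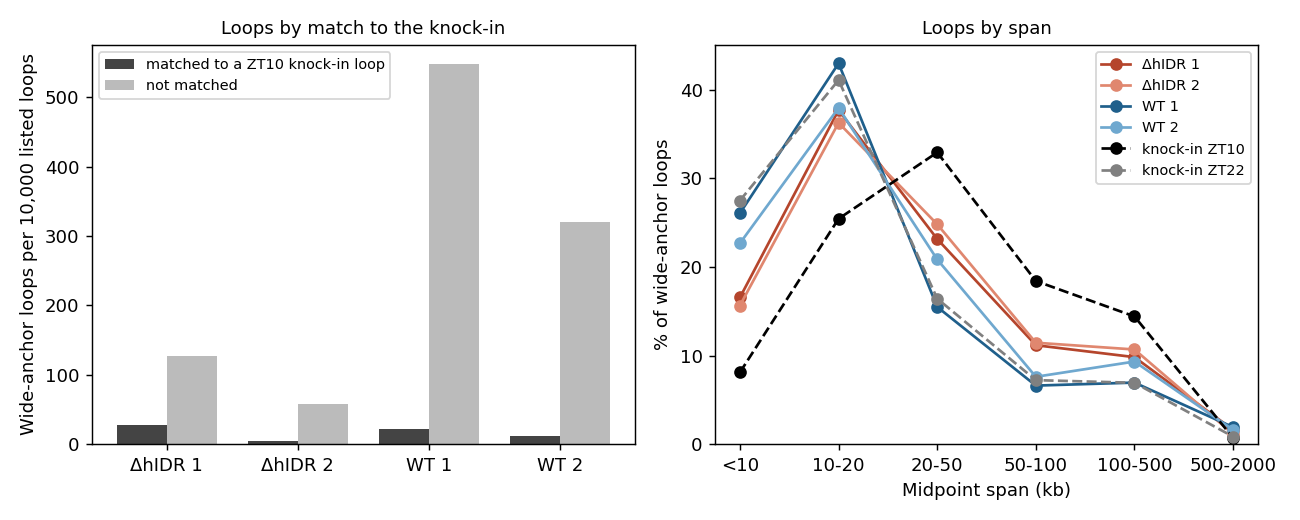
Left, wide-anchor loops per 10000 listed loops in each library, split into those matched to a ZT10 knock-in loop (dark) and those not matched (light); right, the share of each library's wide-anchor loops (%) by midpoint span (kb). Matched loops run from 4.53 to 28.2 without order between constructs, unmatched loops are 127 and 57.9 in ΔhIDR and 549 and 320 in WT libraries, and the ΔhIDR curves hold fewer loops under 10 kb.

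Anchors near genes were a larger part of the ΔhIDR loops. An anchor lay within 5 kb of an end of a protein-coding gene in 30.3% and 28.2% of the wide-anchor loops of ΔhIDR replicates 1 and 2 and in 20.5% and 21.2% of those of WT replicates 1 and 2. The means were 29.3% ± 1.44 in ΔhIDR and 20.9% ± 0.487 in WT libraries (SD, n = 2 each; exact permutation p = 0.33). Among matched loops alone the share was 43.0% and 42.1% in ΔhIDR and 48.6% and 49.2% in WT libraries. Among unmatched loops it was 27.5% and 27.2% in ΔhIDR and 19.4% and 20.2% in WT libraries, so the order of the constructs differed between matched and unmatched loops. At 600 bp or wider the means were 23.9% in ΔhIDR and 21.9% in WT libraries. With loops of at least 4 PETs alone the share was 38.4% and 21.0% in ΔhIDR and 19.7% and 21.5% in WT libraries. The groups then overlapped.

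The labelled tissue was checked on gene lists. A loop touched a gene of the 10 clock, hepatocyte and corepressor lists in 15 and 5 cases in ΔhIDR (2.02% and 1.91% of the wide-anchor loops) and in 15 and 11 cases in WT libraries (0.848% and 0.573%). In the ZT10 knock-in library this share was 7.24%, and in the ZT22 one 1.24%. Markers of other liver cells were touched by 1 and 1 loops in ΔhIDR and by 3 and 4 loops in WT libraries. The lists differ in size, so these loop counts do not compare them. Over the 4 libraries, PETs lay on 28 of 213 genes of the 10 lists and on 6 of 51 markers. Of all 21900 protein-coding genes, 2655 had PETs. No wide-anchor loop touched a member of the Kupffer cell list in any of the 4 libraries. Loops do not measure RNA, so these counts show where anchors lay and not which cells gave them.

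Loops that recurred between libraries were rare. The ΔhIDR replicates shared 2 wide-anchor loops, 0.269% of replicate 1 and 0.763% of replicate 2. The WT replicates shared 5, which were 0.283% of replicate 1 and 0.261% of replicate 2. Across constructs, ΔhIDR replicate 1 shared 1 loop with each WT replicate, ΔhIDR replicate 2 shared 1 with WT replicate 1, and ΔhIDR replicate 2 with WT replicate 2 shared 0. Pairs of 1 construct thus shared 2 and 5 loops, and pairs across constructs 0 or 1. These counts are not scaled to the wide-anchor loops of each library, which number from 262 to 1919. The loop shared by ΔhIDR replicate 2 and WT replicate 1 was 0.382% of the former and 0.0565% of the latter. Whether sharing differed by construct was not tested.

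The first loop of both ΔhIDR libraries lay within Gramd4, between chr15:86091012-86092389 and chr15:86116634-86118599. It had 7 and 3 PETs in ΔhIDR replicates 1 and 2, no listed PET in the WT libraries and 4 in the ZT10 knock-in library. Its low-coordinate anchor covers the Gm15722 window printed above. The other joined chr10:95681177-95682205 to chr10:95773264-95774308, an interval between Nudt4 and Eea1 in which neither anchor is within 100 kb of a protein-coding gene. This loop had 3 and 3 PETs in the ΔhIDR libraries, none listed in the WT libraries and 28 in the ZT10 knock-in library. Both loops were therefore present in the knock-in liver, the second one more strongly.

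Of the 5 loops of both WT libraries, 2 ended at the low-coordinate edge of Npas2 and are described with that gene. Another, between Alg10b and Cpne8 (chr15:90343702-90347072 to chr15:90396841-90399579), had no listed PET in the ΔhIDR libraries and 10 and 5 in WT replicates 1 and 2. It is a strong loop of the ZT10 knock-in library, with 173 PETs. The remaining ones spanned under 10 kb and matched no ZT10 knock-in loop. They lay within Adcy8, an adenylyl cyclase gene (chr15:64759861-64761487 to chr15:64768555-64770570, none listed in ΔhIDR and 3 and 4 PETs in WT libraries), and beside Slc39a10, a zinc transporter gene (chr1:46929612-46930901 to chr1:46938346-46940675, none listed in ΔhIDR and 3 and 3 PETs in WT libraries).

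The loops that crossed constructs fell mostly at genes with strong knock-in loops. A loop within Lpin1, which encodes a phosphatidate phosphatase of lipid synthesis, had 5 PETs in ΔhIDR replicate 1 and 5 in WT replicate 1 and met a ZT10 knock-in loop of 54 PETs. A loop within Tnfrsf1b, a receptor for tumour necrosis factor, had 3 PETs in ΔhIDR replicate 2 and 4 in WT replicate 1 and met one of 59 PETs. The loop near Gmds, with 3 PETs in ΔhIDR replicate 1 and 3 in WT replicate 2, met none.

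Among the clock genes, Npas2 held wide-anchor loops in both WT libraries and in 1 ΔhIDR library. Its protein pairs with BMAL1 in place of CLOCK, and it is a known target of REV-ERBα. Within the gene body plus 5 kb (gene at chr1:39193702-39363240), Npas2 had 0 and 3 PETs in ΔhIDR replicates 1 and 2 and 17 and 10 PETs in WT replicates 1 and 2, against 509 in the ZT10 and 13 in the ZT22 knock-in library. Both ΔhIDR libraries lay below both WT libraries, and each of these PETs belonged to a loop that matched the ZT10 knock-in. The pooled PETs per listed PET in ΔhIDR were 0.100 times those in WT libraries (95% exact conditional interval 0.0195 to 0.327, counting error only). In edgeR's quasi-likelihood test the log2 fold change, ΔhIDR over WT, was -3.42 with an SE of 1.33 and a Benjamini-Hochberg adjusted p = 0.172, which did not pass 0.05.

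Scaled to the wide-anchor loops instead, Npas2 no longer separated the constructs. Per 10000 PETs of wide-anchor loops it had 0 and 33.8 in ΔhIDR and 30.2 and 15.8 in WT libraries, so that ΔhIDR replicate 2 was the highest of the 4. The pooled ratio by that scale was 0.388 (0.0753 to 1.26), and the log2 fold change -0.62. The 3 PETs of ΔhIDR replicate 2 form 1 loop, so this value rests on the lowest count that the files list.

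Over the wider region of chromosome 1 from 38.95 to 39.4 Mb, ΔhIDR replicates 1 and 2 listed 0 and 1 wide-anchor loops with 0 and 3 PETs, and WT replicates 1 and 2 listed 8 and 5 loops with 29 and 19 PETs. The ZT10 knock-in library listed 102 loops with 955 PETs there and the ZT22 one 4 loops with 13 PETs. Matched loops numbered 0 and 1 in ΔhIDR and 6 and 3 in WT libraries. The 2 recurrent WT loops ran from chr1:39025270-39026350 and from chr1:39066990-39068514 to an anchor within chr1:39192086-39193867, at the edge of the gene, over 167 and 125 kb. The longer one had no listed PET in either ΔhIDR library and 5 and 4 PETs in the WT libraries (85 in the ZT10 knock-in library), and the shorter one none in the ΔhIDR libraries and 5 and 6 PETs in the WT libraries (64). The loop of ΔhIDR replicate 2 reached the same edge of Npas2 from elsewhere, chr1:39105343-39106434, over 86.5 kb, and met a knock-in loop of 90 PETs.

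**Figure D3:**
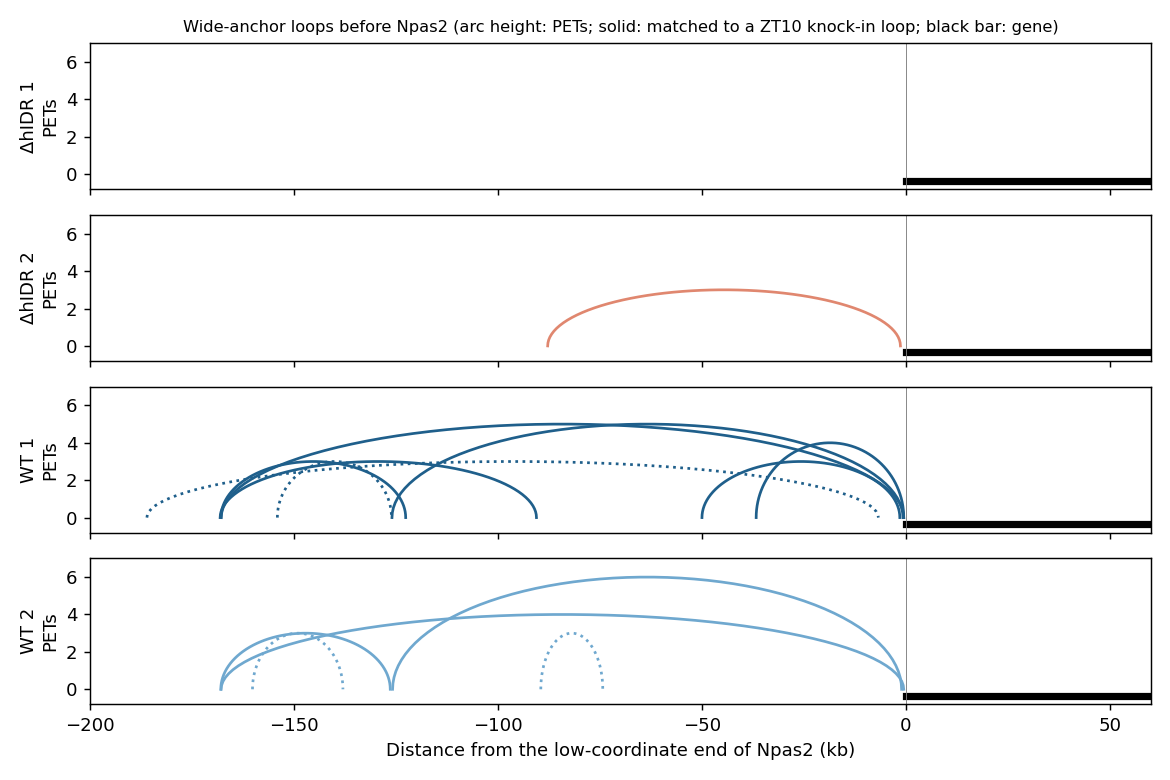
Arcs join the anchors of wide-anchor loops before Npas2 in each library, by distance from the gene's low-coordinate end (kb), with height equal to PETs; solid arcs matched a ZT10 knock-in loop, dotted ones did not, and the black bar is the gene. ΔhIDR replicate 1 is empty and ΔhIDR replicate 2 has 1 arc of 3 PETs, whereas WT replicates 1 and 2 have 8 and 5 arcs, of which 2 recur.

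In bins of 100 kb the same neighbourhood gave the only call. Of 94 bins with at least 10 PETs over the 4 libraries, 1 (1.06%) passed an adjusted p of 0.05 in edgeR's quasi-likelihood test, and it was lower in ΔhIDR. This bin, chromosome 1 from 39.0 to 39.1 Mb, holds the far anchors of the Npas2 loops and no protein-coding gene of the annotation. It had 0 and 0 PETs in ΔhIDR replicates 1 and 2 and 22 and 16 PETs in WT replicates 1 and 2, with 626 in the ZT10 knock-in library, and its adjusted p was 0.0364 by edgeR's quasi-likelihood test with Benjamini-Hochberg adjustment. No fold is given, since ΔhIDR has no PET of a wide-anchor loop in this bin. The call was lost when any 1 library was left out, with adjusted p between 0.0750 without ΔhIDR replicate 1 and 0.990 without WT replicate 1. It was also lost with the PETs of wide-anchor loops as library size (adjusted p = 0.369), with the replicate number as a block (adjusted p = 0.998) and at 600 bp or wider (adjusted p = 0.836). With edgeR's filterByExpr, which left 3 bins, and with at least 20 PETs, which left 4, its adjusted p by edgeR was 0.0853 and 0.0729. The next bin, 39.1 to 39.2 Mb, which holds the start of Npas2 and shares those loops, had 0 and 3 PETs in ΔhIDR and 23 and 13 in WT libraries (log2 -3.85, adjusted p = 0.210 by edgeR). It was called, lower in ΔhIDR, with anchors of 1000 bp or wider (adjusted p = 0.000695 by edgeR) and by DESeq2 (adjusted p = 0.0204).

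Other bins gave values without a call under the settings used for the counts above. At an unadjusted p under 0.05, 15 bins (16%) were lower and 1 (1.06%) higher in ΔhIDR. In PETs not scaled to library size, both ΔhIDR libraries were below both WT libraries in 29 bins (30.9%) and above them in 3 (3.19%). The bin on chromosome 15 from 90.3 to 90.4 Mb, with the loop between Alg10b and Cpne8, had no listed PET in ΔhIDR and 10 and 16 PETs in WT libraries (297 in the ZT10 knock-in library; adjusted p = 0.285 by edgeR), and was singled out after its values were seen. It was called, lower in ΔhIDR, under 4 alternatives, with an adjusted p of 0.00015 by edgeR with anchors of 1000 bp or wider, 0.0387 by DESeq2, 0.00187 by edgeR with filterByExpr and 0.00845 by edgeR with at least 20 PETs. Chromosome 15 from 86.1 to 86.2 Mb, which overlaps Gramd4 and Cerk, had 7 and 3 PETs in ΔhIDR and no listed PET in WT libraries (adjusted p = 0.384 by edgeR). Chromosome 1 from 88.2 to 88.3 Mb, which holds Ugt1a1, Mroh2a and Hjurp, had 6 and 8 PETs in ΔhIDR and 3 and 0 in WT libraries (adjusted p = 0.891 by edgeR). Chromosome 1 from 136.8 to 136.9 Mb, which begins before Nr5a2 and holds part of it, had 6 and 3 PETs in ΔhIDR and 0 and 3 in WT libraries (adjusted p = 0.872 by edgeR).

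Across genes no difference passed. PETs of wide-anchor loops fell on 2655 of 21900 protein-coding genes with 5 kb at either side, and on 613 and 209 genes in ΔhIDR and 1045 and 1246 in WT libraries. Only 135 genes held at least 10 PETs over the 4 libraries and were tested. Of these, 0 (0%) had an adjusted p under 0.05 by edgeR's quasi-likelihood test, and the smallest adjusted p was 0.172. At an unadjusted p under 0.05, 29 genes (21.5%) were lower and 10 (7.41%) higher in ΔhIDR. All of these 10 except Nfib are overlapping Ugt1a genes that share the same loops. DESeq2 also called 0, with 2 lower and 11 higher at an unadjusted p under 0.05. In PETs not scaled to library size, both ΔhIDR libraries were below both WT libraries for 49 genes (36.3%) and above them for 12 (8.89%). The 12 include the same Ugt1a genes. These counts leave out of account that wide-anchor loops held 2536 and 888 PETs in ΔhIDR and 5634 and 6321 in WT libraries. Overlapping genes share loops, so that gene counts here and below are not counts of separate places.

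The lean towards lower values depended on the scale. The median log2 fold change of the 135 genes was -1.95 per listed PET, with 109 genes below 0 and 26 above. It was -1.46 with TMM factors, -0.65 with DESeq2's size factors and 0.18 with the PETs of wide-anchor loops as library size, and by that last scale 0 genes were lower and 9 higher at an unadjusted p under 0.05. A single gene's value below is therefore to be read against the shift of the scale it is given on. Replicates scattered widely: edgeR's biological coefficient of variation was 1.22, and only 3 of the 135 genes had PETs in all 4 libraries. The tested genes were long, with a median of 386 kb against 17.1 kb over all genes, and 57 of them exceeded 500 kb.

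**Figure D4:**
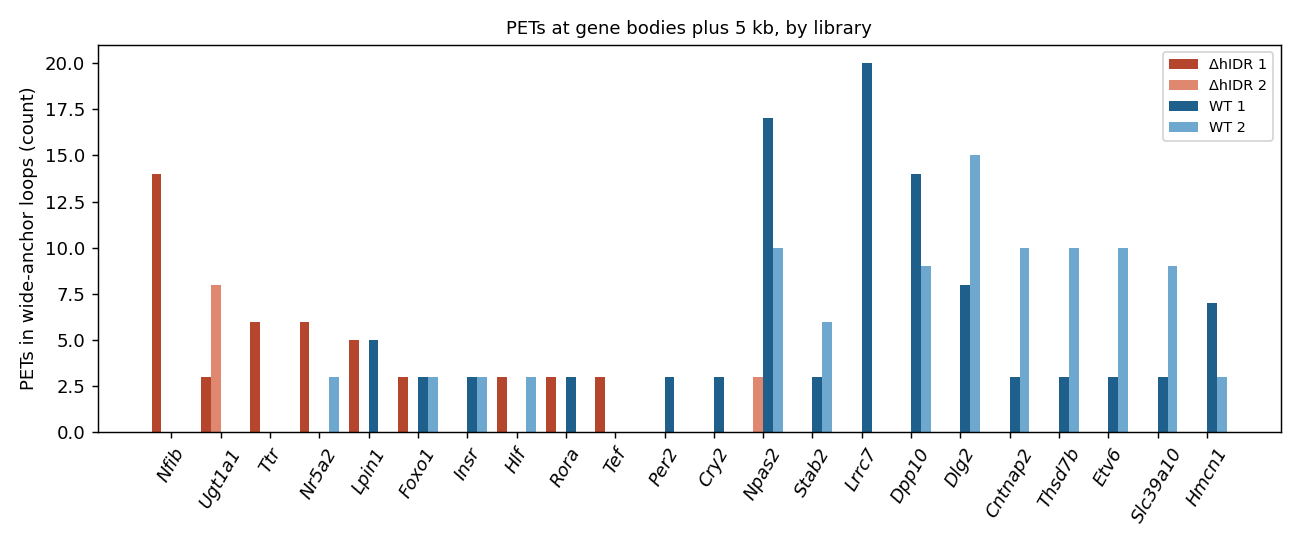
PETs of wide-anchor loops at gene bodies plus 5 kb (count, not scaled to library size) for each of the 4 libraries, for genes named by the rule, from those with PETs mainly in ΔhIDR on the left to those with PETs only in WT libraries on the right. Nfib and the Ugt1a genes have 14 and 0, and 3 and 8, PETs in ΔhIDR and none in WT libraries, while Dpp10 and Dlg2 have none in ΔhIDR.

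Apart from Npas2, the 9 genes named by smallest p on the lower side had no PET of a wide-anchor loop in ΔhIDR. Dpp10, which encodes a partner of potassium channels, had no listed PET in ΔhIDR and 14 and 9 PETs in WT replicates 1 and 2. Dlg2, a synaptic scaffold gene, had none in ΔhIDR and 8 and 15 in WT libraries. For both, the WT libraries held several separate loops, 4 and 3 in Dpp10 and 2 and 5 in Dlg2, and none of them matched a ZT10 knock-in loop. Lrrc7, another synaptic scaffold gene, had none in ΔhIDR and 20 and 0 in WT libraries, in 6 loops of replicate 1 alone, so that its groups overlap.

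The further genes on that side had fewer PETs. Dcc, the netrin receptor of axon guidance, had none listed in ΔhIDR and 6 and 4 PETs in WT libraries, and Hmcn1, an extracellular matrix gene, none in ΔhIDR and 7 and 3 in WT libraries. Cntnap2 (neuronal adhesion), Thsd7b and Etv6 (an ETS-family repressor) each had none in ΔhIDR and 3 and 10 PETs in WT libraries. Slc39a10 had none in ΔhIDR and 3 and 9 in WT libraries. All of these genes had an adjusted p of 0.172 by edgeR's quasi-likelihood test. Of them, Etv6 carried 271 PETs in the ZT10 knock-in library, though the Etv6 loops of the WT libraries did not match those. Dpp10, Dcc, Hmcn1, Thsd7b, Lrrc7 and Slc39a10 were at 0 there. Without the width limit the log2 fold change of 7 of them came out above 0 (0.034 to 0.49), the exceptions being Lrrc7 and Dcc.

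On the higher side the 10 genes came from 2 places. Nfib, which encodes the transcription factor nuclear factor I/B, had 14 and 0 PETs in ΔhIDR replicates 1 and 2 and none listed in WT libraries, with 554 in the ZT10 knock-in library. Of the 14 PETs, 11 belonged to 1 loop of 726 kb from Nfib to Ttc39b that the ZT10 knock-in library does not list, and 3 to a matched loop within the gene. The other 9 are overlapping genes of the Ugt1a cluster, which share exons and here share the same loops, so that they amount to 1 observation. These genes make the enzymes that join bilirubin and drugs to glucuronic acid. They had 3 and 8 PETs in ΔhIDR replicates 1 and 2, and none listed in the WT libraries, with 741 to 772 PETs in the ZT10 knock-in library. The adjusted p by edgeR's quasi-likelihood test was 0.172 for Nfib and for the Ugt1a genes.

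At the Ugt1a cluster each ΔhIDR library had a loop that matched the knock-in. In replicate 1 it had 3 PETs and met a loop of 37 PETs, and in replicate 2 it had 3 PETs and met a loop of 155 PETs. The other 5 PETs of replicate 2 formed a loop towards Trpm8 that the ZT10 library does not list. Beside the cluster, outside the window of the Ugt1a genes, ΔhIDR replicate 1 had an unmatched loop of 3 PETs between Mroh2a and Hjurp. WT replicate 1 had a loop of 3 PETs there between Mroh2a and an anchor that overlaps the promoter window of Hjurp, and it met a knock-in loop of 10 PETs.

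Beyond Npas2, the clock genes held single loops of 3 PETs. Of 19 core clock genes 6 had PETs, with list totals of 9 and 3 in ΔhIDR and 26 and 13 in WT libraries. Rora, an activator that competes with REV-ERBα for its sites, had 3 and 0 PETs in ΔhIDR and 3 and 0 in WT libraries. Hlf and Tef encode output factors of the clock. Hlf had 3 and 0 PETs in ΔhIDR and 0 and 3 in WT libraries, and Tef 3 and 0 in ΔhIDR and none in WT libraries. Per2 and Cry2, repressors of the clock's negative limb, had none in ΔhIDR and each 3 and 0 in WT libraries. The Per2 loop spanned 13.8 kb and met a ZT10 knock-in loop of 127 PETs, and no other of these loops matched. The floxed genes Nr1d1 and Nr1d2 had no wide-anchor PET in any of the 4 libraries, so the loops offer no check of the deletion.

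Metabolic lists were thinly covered, as were protein-coding genes in general, of which 2655 of 21900 had PETs. In lipogenesis, 4 of 33 genes had PETs, with totals of 13 and 3 in ΔhIDR and 8 and 0 in WT libraries. Lpin1 had 5 and 0 in ΔhIDR and 5 and 0 in WT libraries, all in the loop that recurred across constructs, with a log2 fold change of -0.66 (SE 2.02, adjusted p = 0.844 by edgeR) that turned to 1.36 with the PETs of wide-anchor loops as library size. Acaca, acetyl-CoA carboxylase, had 5 and 0 PETs in ΔhIDR and 3 and 0 in WT libraries, in unmatched loops. In cholesterol and bile acid metabolism 3 of 24 genes had PETs, with totals of 0 and 3 in ΔhIDR and 0 and 6 in WT libraries. Dhcr7, an enzyme of late cholesterol synthesis, had 0 and 3 PETs in ΔhIDR and none in WT libraries, and Lss (lanosterol synthase) and Cyp7b1 (an oxysterol hydroxylase) each had none in ΔhIDR and 0 and 3 in WT libraries. In glucose and insulin 3 of 21 had PETs, with totals of 3 and 0 in ΔhIDR and 9 and 6 in WT libraries. Foxo1, the insulin-restrained factor of gluconeogenesis, had 3 and 0 PETs in ΔhIDR and 3 and 3 in WT libraries, and only the ΔhIDR loop matched, to a loop of 31 PETs. Insr, the insulin receptor, had none in ΔhIDR and 3 and 3 in WT libraries. None of the 20 fatty acid oxidation genes had a PET.

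Regulators and secreted proteins were likewise sparse. In the corepressor list, Tbl1xr1, which encodes a part of the NCoR complex, had no PETs in ΔhIDR and 3 and 0 PETs in WT libraries. Among 20 liver transcription factors, Nr5a2, a nuclear receptor of bile acid synthesis, had 6 and 0 PETs in ΔhIDR and 0 and 3 in WT libraries, and Nr3c1, the glucocorticoid receptor, 3 and 0 in ΔhIDR and none in WT libraries. Of 20 xenobiotic genes 4 had PETs, 10 and 8 in ΔhIDR and 4 and 3 in WT libraries, among them Ugt1a1 and the drug exporter gene Abcb1a (3 and 0 in ΔhIDR, 0 and 3 in WT libraries). Of 24 secreted hepatocyte proteins only Ttr, which carries thyroid hormone and retinol, had PETs, 6 and 0 in ΔhIDR and none in WT libraries, in a loop that met a knock-in loop of 12 PETs. Of 20 acute-phase genes, Hpx, which binds heme, had 3 and 0 in ΔhIDR and none in WT libraries, and Cp, ceruloplasmin, none in ΔhIDR and 0 and 3 in WT libraries.

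Together 28 of the 213 genes in these 10 lists had PETs, beside 2655 of all 21900 genes. The list members held 53 and 17 PETs in ΔhIDR and 53 and 37 in WT libraries. By pooled PETs per listed PET, 11 were higher and 17 lower in ΔhIDR, beside 615 higher and 2040 lower of all 2655 genes with PETs. No member passed the test in either direction, with 3 tested and a median log2 fold change of -0.66, beside -1.95 over all 135 tested genes. Genes with PETs in WT libraries alone were 39.3% of the 28 and 70.1% of all genes with PETs. Of the 51 markers of other liver cells, 6 had PETs, 3 and 3 in ΔhIDR and 9 and 12 in WT libraries. These were Stab2 (none in ΔhIDR, 3 and 6 in WT libraries) and Lyve1 (0 and 3 in ΔhIDR, none in WT libraries) of the endothelium, Dcn of stellate cells (none in ΔhIDR, 0 and 3 in WT libraries), Cftr of cholangiocytes (none in ΔhIDR, 6 and 0 in WT libraries), and Ptprc (3 and 0 in ΔhIDR, none in WT libraries) and Nkg7 (none in ΔhIDR, 0 and 3 in WT libraries) of lymphocytes. None of these marker loops matched a ZT10 knock-in loop.

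Single loops that met strong knock-in loops were found with both constructs. Those given here were chosen after their values were seen and are not a ranking. A loop at Nav2 in ΔhIDR replicate 1, for example, met a knock-in loop of 154 PETs and is not described further. ΔhIDR replicate 1 had a loop at Hopx (4 PETs, knock-in 177). It also had a loop at Ddah1, whose enzyme breaks down an inhibitor of nitric oxide synthesis (5 PETs, knock-in 141). Another ran from an anchor within 5 kb of Mcm8 and Crls1 to an anchor within 5 kb of Crls1 and Lrrn4 (4 PETs, knock-in 140). A second loop of that library between the same genes had 3 PETs and also met a knock-in loop of 140. A loop to the promoter of Apoa5, a regulator of plasma triglyceride, had 7 PETs in ΔhIDR replicate 1 and met a knock-in loop of 59. In ΔhIDR replicate 2 a loop at Lpcat3, a phospholipid-remodelling gene, had 3 PETs and met one of 156. WT replicate 1 had loops at Rnf125 (3 PETs, knock-in 312) and Dusp6, a phosphatase of ERK (3 PETs, knock-in 151), and WT replicate 2 had them at Adra1b (3 PETs, knock-in 205) and Dnase2b (4 PETs, knock-in 101). Each of these was a wide-anchor loop in 1 of the 4 libraries.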

How the data were processed

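Liver nuclei were crosslinked with formaldehyde and EGS, digested by AluI and religated in place, and the sheared chromatin was captured on anti-HA beads before Tn5 tagmentation and paired sequencing, per the labels' protocols. Each deposited file lists pairs of anchors of 1 library with raw counts of PETs, neither normalized nor pooled over replicates. Coordinates are those of mm10, as stated in the submitters' processing notes. How reads were aligned, how copies were removed and which program called loops is not given in the sources used here. The lowest count in every file was 3, so listed PETs are not the sequencing depth. Listed nuclear PETs numbered 178263 and 160529 in ΔhIDR and 103224 and 203124 in WT libraries. No column of per-sample values was left unused.

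File starts were read as counting from 0 and are printed counting from 1. Genes and promoters came from RefSeq's GRCm38.p6, whose coordinates are those of mm10, and all 264 entries of the 15 gene lists matched. PETs of wide-anchor loops were summed per gene body plus 5 kb and per 100-kb bin by anchor midpoint, so that neighbouring genes share loops. Features with at least 10 PETs were tested with edgeR 4.0.16 (glmQLFit and glmQLFTest, limma 3.58.1, R 4.3.3), with listed nuclear PETs as library size, no TMM factor and Benjamini-Hochberg adjustment at 0.05, and the procedure was tested on simulated data. Whole-library shares were compared by exact permutation over libraries, with 95% Wilson intervals. Alternatives were other widths, spans, windows, filters and scalings, DESeq2 1.42.0, loops of at least 4 PETs, each library left out, and replicate number as a block. The labels give the groups the same replicate numbers, but same-numbered libraries did not deviate together (correlation of deviations -0.00429 over genes and 0.0283 over bins), so the numbers were not taken as pairs.

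Named were up to 10 genes and bins per direction by smallest p, all core clock genes with PETs, the 2 genes with most PETs of each other list, and the loops listed in both libraries of a construct. The members and lists were chosen with earlier results of these data known.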

Additional observations from a re-analysis of the deposited data

Results flagged for a closer look

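Signal lay outside the compared loops in every library. Mitochondrial loops, which the comparison did not use, held 369 PETs in ΔhIDR replicate 1 and 151 in ΔhIDR replicate 2, and 1207 in WT replicate 1 and 1012 in WT replicate 2. The stretch of chromosome 11 from 3.1 to 3.3 Mb that was left out held 163 PETs in ΔhIDR replicate 1 and 106 in ΔhIDR replicate 2, and 937 in WT replicate 1 and 894 in WT replicate 2. For both, the ΔhIDR libraries lay below the WT libraries, as they did for wide-anchor loops. The difference was not tested.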

How the results depend on the processing

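No gene was called in the 135 tested, and the count became 2 (Nckap5 and Dlg2, both lower in ΔhIDR) with edgeR's filterByExpr, which left 3 genes, and 0 to 1 with single libraries left out (1 being Celf2, log2 -2.89, without WT replicate 1). The 1 called bin, on chromosome 1 from 39.0 to 39.1 Mb, became 3 at 1000 bp or wider and 3 by DESeq2, joined in both by the bins from 39.1 to 39.2 Mb and on chromosome 15 from 90.3 to 90.4 Mb. With filterByExpr and with at least 20 PETs 1 bin was called, but it was the one on chromosome 15. The count became 0 at 600 bp or wider, with no width minimum, with loops of at least 4 PETs, with the chromosome 11 stretch kept in, in bins of 50 kb and of 250 kb, with PETs of wide-anchor loops as library size, with no low-count filter, and with any library left out (0 to 0). With the replicate number as a block, 0 genes and 0 bins were called, with smallest adjusted p of 0.928 and 0.998 by edgeR. For loops under 100 kb the difference of ΔhIDR minus WT, in percentage points, was -1.73 and turned to 3.20 with loops of at least 4 PETs.

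With no width minimum the log2 fold change of ΔhIDR over WT turned to 0.072 for Dpp10, 0.034 for Dlg2, 0.49 for Slc39a10, 0.088 for Cntnap2, 0.29 for Thsd7b, 0.31 for Etv6, 0.27 for Hmcn1, 0.80 for Lpin1, -0.48 for the bin on chromosome 1 from 136.8 to 136.9 Mb and 0.29 for the Celf2 bin on chromosome 2. At 600 bp or wider it turned to 0.52 for Slc39a10 and 0.052 for Cntnap2. For Lpin1 it also turned to 0.18 with TMM, 1.36 with PETs of wide-anchor loops as library size, 0.65 by DESeq2, and ran from -1.72 (without WT replicate 2) to 0.36 (without ΔhIDR replicate 2) with single libraries left out. The cause was not tested. Npas2 stayed below 0 under the alternatives in which it was tested, the value nearest 0 being -0.62, with PETs of wide-anchor loops as library size. With loops of at least 4 PETs it had no PET in ΔhIDR, so no fold is given. Most loops held 3 PETs and loops of up to 2 are not listed, and the part of sequencing depth was not tested.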

Other observations

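Celf2, Nckap5 and Ank2 were the 3 tested genes with PETs in all 4 libraries, and they stood outside the naming rule. Celf2, an RNA-binding protein gene, had 4 and 3 PETs in ΔhIDR and 3 and 32 in WT libraries, with 9 separate loops in WT replicate 2 that matched no ZT10 knock-in loop. Nckap5 had 4 and 4 PETs in ΔhIDR and 9 and 13 in WT libraries. Ank2, which encodes the membrane adaptor ankyrin B, had 6 and 3 PETs in ΔhIDR and 4 and 3 in WT libraries. All 3 were chosen after their values were seen, and none passed edgeR's quasi-likelihood test in the full comparison.

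Loops with at least 1 anchor on a gene of 500 kb or more were 6.46% and 8.78% of wide-anchor loops in ΔhIDR and 9.44% and 8.96% in WT libraries. This length was chosen after values were seen. Such loops were 2.98% in the ZT10 and 8.08% in the ZT22 knock-in library.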
